A study of Mus musculus with 2 samples.

Results

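The 39 protein-coding Hox genes of the Hoxa, Hoxb, Hoxc and Hoxd clusters were examined in 2 peak lists from mouse embryonic stem cells (mESCs), made to map the chromatin remodeller SRCAP. Members were all protein-coding genes of the GENCODE vM21 annotation (mouse build GRCm38, also called mm10) whose symbol is Hoxa, Hoxb, Hoxc or Hoxd followed by a number, which gave 39 of 21951 protein-coding genes. Hoxa holds 11 of them on chr6:52155590-52260880, Hoxb holds 10 on chr11:96194316-96368256, Hoxc holds 9 on chr15:102921103-103036852 and Hoxd holds 9 on chr2:74668310-74765142. A peak was counted at a promoter when its midpoint lay from 1000 bp upstream to 500 bp downstream of any transcription start site (TSS) of the gene, inside a cluster when its midpoint lay between the outer ends of the cluster's genes, and in a flank when it lay within 100 kb of those ends. By these rules 27 of 28718 peaks of the GFP antibody list and 47 of 28167 peaks of the SRCAP antibody list lay in or beside a cluster.

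Hox genes encode homeodomain transcription factors that give cells their position along the body axis. Genes of the same number in different clusters are paralogs, and low numbers are expressed early and toward the head while high numbers are expressed later and toward the tail. In mESCs the clusters are known as largely silent domains whose CpG islands carry Polycomb marks together with H3K4me3, and the histone variant H2A.Z, which the SRCAP complex places in nucleosomes, is known to be found at such promoters.

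The cells were SYAT cells, a CGR8 mESC line in which both Srcap alleles carry YPet and an auxin-inducible degron (AID) at their 3′ end and which stably expresses the plant receptor OsTir1. The same line gave both libraries, so both groups share these alleles. In 1 library an antibody against GFP, which binds the YPet tag, was used, and in the other an antibody against SRCAP itself. In CUT&RUN, a nuclease brought to the antibody in permeable nuclei cuts out the DNA beside the bound protein. Per the labels, SYAT cells were routinely kept in 200 nM auxinole, the control condition, to hold back degradation of the tagged protein. The methods of the study give 200 µM instead. The labels name no treatment for either library by itself, and the study calls its CUT&RUN map one of control cells. The methods of the study describe CUT&RUN only for the SRCAP antibody, so that the GFP library was made by CUT&RUN rests on the labels alone.

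Each antibody had 1 library, so the values below have no replicate check and no test between antibodies was made. The lists hold no read counts and their depth is unknown, and the intervals given are 95% intervals that cover counting error only. The score is the whole number that the authors deposited for each peak. Its meaning was not stated, its lowest value was 13 in both lists and its median was 47 in both. Of 4 mESC marker genes, only Zfp42 had a promoter peak in both lists (25.0%, 4.56% to 69.9%), beside 27.0% of all protein-coding genes. Pou5f1, Sox2 and Nanog had none in the promoter window. Peak lists hold no expression values against which to check the cell type.

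Few Hox promoters carried a listed peak. In the GFP list Hoxc13 was the only one, which is 1 of 39 genes (2.56%, 95% Wilson interval 0.454% to 13.2%), beside 35.0% of all protein-coding genes. In the SRCAP list Hoxb4, Hoxc9, Hoxc11 and Hoxc13 had a promoter peak, which is 4 of 39 (10.3%, 4.06% to 23.6%), beside 35.6% of all protein-coding genes. Hoxc13 was the only member with a promoter peak in both lists, a state found in 27.0% of protein-coding genes. Counting either list gave 4 of 39 members beside 43.6% of protein-coding genes.

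**Figure D1:**
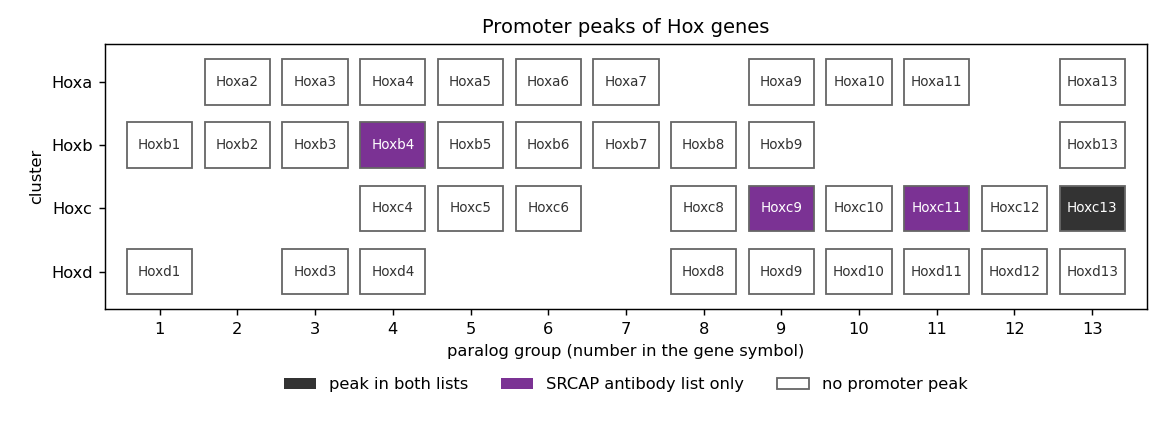
Each box is 1 of 38 Hox genes, placed by its paralog group (horizontal axis, the number in the symbol) and its cluster (vertical axis), and the fill gives the state of its promoter in the 2 peak lists. The Hoxc row holds 3 of the 4 filled boxes, and the rows of Hoxa and Hoxd are empty.

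By cluster the counts were small and their intervals overlapped. None of the 11 Hoxa genes and none of the 9 Hoxd genes had a promoter peak in either list. In Hoxb it was 1 of 10 genes, and in Hoxc it was 3 of 9, all in the SRCAP list. The Wilson intervals of the SRCAP shares were 0% to 25.9% for Hoxa, 1.79% to 40.4% for Hoxb, 12.1% to 64.6% for Hoxc and 0% to 29.9% for Hoxd. With 2500 bp on each side of a TSS the SRCAP counts were 2, 4, 4 and 4 in the same order, and Hoxc did not stand apart from Hoxb and Hoxd. By position along the axis, 0 of 8 anterior genes (groups 1 to 3), 1 of 15 central genes (groups 4 to 8) and 3 of 16 posterior genes (groups 9 to 13) had a promoter peak in the SRCAP list, and the Wilson intervals of the central share (1.19% to 29.8%) and the posterior share (6.59% to 43.0%) overlapped.

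Hoxc13, a posterior gene known for its part in hair and nail formation, had the promoter peak of highest score. The GFP peak lay on chr15:102920469-102920951, was 483 bp wide and had a score of 86, higher than or equal to 82.6% of the scores in its list. The SRCAP peak lay on chr15:102920709-102920983, was 275 bp wide and had a score of 269, at or above 98.8% of its list. Both midpoints lay upstream of the TSS, at 393 bp and 257 bp, and the peaks shared 243 bp. Since the TSS of Hoxc13 is the outer end of the cluster, these peaks count in the Hoxc flank below and not inside the cluster.

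The other 3 promoter peaks were found in the SRCAP list alone and had lower scores. Hoxc11, a gene of lumbosacral and hind limb patterning, had a peak with a score of 47 in its coding sequence. Hoxc9, a gene of thoracic identity, had a peak of 159 bp on chr15:102975575-102975733 with a score of 24, whose midpoint lay 785 bp upstream of its TSS and within an intron of the long Hoxc5 record. Hoxb4, known for its roles in the neck vertebrae and in blood progenitors, had a peak of 171 bp on chr11:96318014-96318184 with a score of 27, whose midpoint lay 168 bp upstream of the TSS. The scores of Hoxc9 and Hoxb4 stood at or above 15.3% and 17.1% of their list, and that of Hoxc11 at or above 53.0%.

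The sequences under the promoter peaks of Hoxc13, Hoxc9 and Hoxb4 are printed to show Hox promoter DNA that the lists hold. They were read from the GRCm38 genome of RefSeq on the plus strand, which is the coding strand of Hoxb and Hoxc, and capitals mark CG dinucleotides. For the GFP peak at Hoxc13, which was wider than 300 bp, the central 300 bp (chr15:102920560-102920859) are given.
Hoxc13, GFP list: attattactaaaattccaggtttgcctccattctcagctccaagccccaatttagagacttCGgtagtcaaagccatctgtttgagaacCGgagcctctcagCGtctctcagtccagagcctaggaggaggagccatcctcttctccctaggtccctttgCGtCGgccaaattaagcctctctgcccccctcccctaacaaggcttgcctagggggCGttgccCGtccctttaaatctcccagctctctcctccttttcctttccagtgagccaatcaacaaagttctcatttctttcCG
Hoxc13, SRCAP list: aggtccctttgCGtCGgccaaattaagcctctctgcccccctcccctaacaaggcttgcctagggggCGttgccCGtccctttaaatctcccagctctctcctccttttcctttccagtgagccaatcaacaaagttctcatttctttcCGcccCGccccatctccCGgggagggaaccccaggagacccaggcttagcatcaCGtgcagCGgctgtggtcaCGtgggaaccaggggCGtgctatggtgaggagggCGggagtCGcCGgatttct
Hoxc9, SRCAP list: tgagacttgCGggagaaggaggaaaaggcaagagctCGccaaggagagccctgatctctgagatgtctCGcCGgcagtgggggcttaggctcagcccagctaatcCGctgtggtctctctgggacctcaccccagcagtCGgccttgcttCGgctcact
Hoxb4, SRCAP list: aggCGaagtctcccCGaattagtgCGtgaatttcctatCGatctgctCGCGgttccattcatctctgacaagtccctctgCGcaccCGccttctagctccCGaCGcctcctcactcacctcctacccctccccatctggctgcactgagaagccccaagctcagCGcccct

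The SRCAP peak at Hoxc13 held 14 CG dinucleotides in 275 bp and that at Hoxb4 held 11 in 171 bp. The observed over expected CpG ratio, which compares the number of CG dinucleotides with that of the C and G content, was 0.855 under the Hoxb4 peak, 0.575 under the SRCAP peak of Hoxc13 and 0.474 under Hoxc9. In the 300 bp at the peak's midpoint the ratio was 0.703 at Hoxb4, 0.553 at Hoxc13 and 0.606 at Hoxc9. The order of Hoxc13 and Hoxc9 thus depends on the length read. Over the whole SRCAP list, the median of this ratio in the same 300 bp was 0.315.

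Hox promoters held more CpG than the median promoter. The median Hox promoter had 55.4% GC and a CpG ratio of 0.577, beside 51.0% and 0.387 over all protein-coding genes. With at least 50% GC and a ratio of at least 0.6 as the definition of a CpG-rich promoter, 17 of 39 Hox genes (43.6%, 29.3% to 59.0%) and 25.0% of all protein-coding genes were in the class, and 22 Hox genes were outside it. Within it, 1 of 17 Hox genes had a GFP promoter peak (5.88%, 1.05% to 27.0%) beside 50.5% of the 5485 CpG-rich genes, and 3 of 17 had a SRCAP promoter peak (17.6%, 6.19% to 41.0%) beside 52.2%. Among the 14 CpG-rich Hox genes with no promoter peak were Hoxa13, with 68.0% GC and a ratio of 0.872, Hoxd13, with 65.6% and 0.902, and Hoxa4, with 65.2% and 0.904. Hoxb4, with 50.4% GC and a ratio of 0.442, had a SRCAP peak outside the class.

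The nearest members outside the window stood close to its edge. Of those counted, Hoxc9 lay farthest from its TSS at 785 bp upstream. Of those not counted, Hoxa9 had a SRCAP peak 589 bp downstream of a TSS, and Hoxd3 had one 622 bp downstream. With 2500 bp on each side of a TSS, the SRCAP list reached 14 of 39 Hox genes beside 41.9% of all protein-coding genes, which is a share of 35.9%. The added members were Hoxa5, Hoxa9, Hoxb1, Hoxb9, Hoxb13, Hoxc5, Hoxd3, Hoxd4, Hoxd11 and Hoxd12. The GFP list reached 4 of 39 (10.3%) in the same window beside 41.6%, with Hoxb1, Hoxd3 and Hoxd12 added to Hoxc13.

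The 35 Hox genes with no promoter peak in either list included Hoxa2, Hoxa3, Hoxa4, Hoxa5, Hoxa6, Hoxa7, Hoxa9, Hoxa10, Hoxa11 and Hoxa13, then Hoxb1, Hoxb2, Hoxb3, Hoxb5, Hoxb6, Hoxb7, Hoxb8, Hoxb9 and Hoxb13, then Hoxc4, Hoxc5, Hoxc6, Hoxc8, Hoxc10 and Hoxc12, and Hoxd1, Hoxd3, Hoxd4, Hoxd8, Hoxd9, Hoxd10, Hoxd11, Hoxd12 and Hoxd13. Over all 39 genes the distance from a TSS to the nearest peak midpoint ran from 0.393 kb to 96.6 kb in the GFP list, with a median of 18.5 kb, and from 0.168 kb to 16.5 kb in the SRCAP list, with a median of 4.06 kb. The medians over all protein-coding genes were 6.50 kb and 6.38 kb. The SRCAP list had the nearer peak at 36 of 39 genes, and at the other 3 the GFP peak was nearer by at most 165 bp. Genes side by side can have the same nearest peak, so these are not 39 separate observations. The same count over all protein-coding genes is not given.

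**Figure D2:**
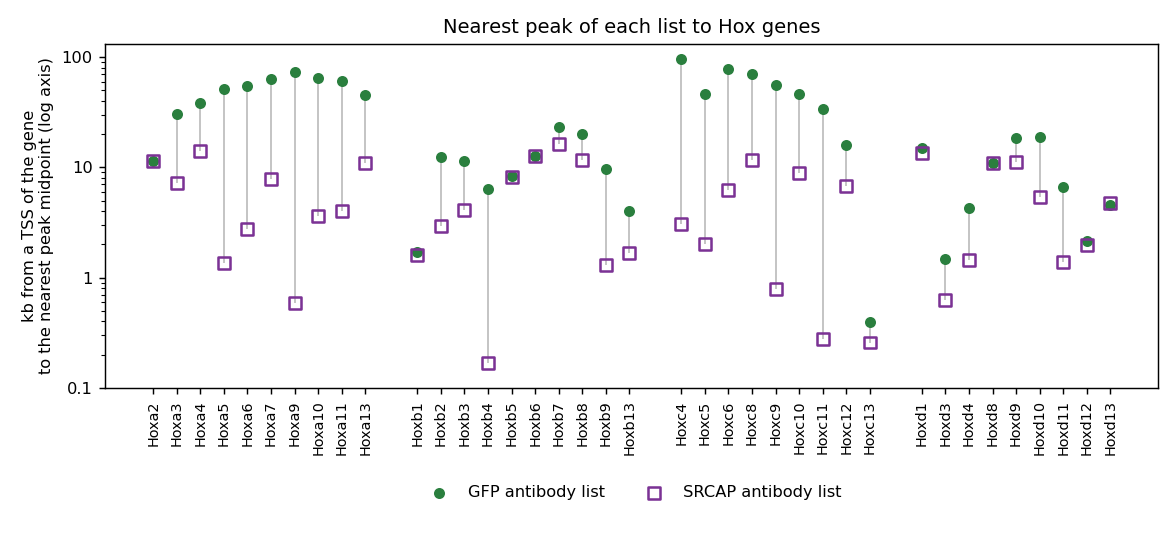
For each of 38 Hox genes (horizontal axis, by cluster and group) the distance from a TSS to the nearest peak midpoint is plotted in kb on a log axis, with filled circles for the GFP list, open squares for the SRCAP list and a line joining both. Lines are long over most of Hoxa and Hoxc, where the nearest GFP peak lay up to 96.6 kb away, and short at Hoxb1, Hoxb5, Hoxb6, Hoxc13, Hoxd8 and Hoxd12.

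A peak within 5 kb of a TSS was listed for 8 of 39 Hox genes with the GFP antibody (20.5%, 10.8% to 35.5%), beside 47.5% of all protein-coding genes. With the SRCAP antibody it was 22 of 39 (56.4%, 41.0% to 70.7%), beside 47.4%, so the SRCAP interval held the background share and the GFP interval lay below it. Neighbouring genes can share 1 peak in this count, as Hoxa5 and Hoxa6 did. The intervals treat genes as independent, so they may be too narrow for this comparison. The GFP genes included Hoxb1, Hoxb13, Hoxc13, Hoxd3, Hoxd4, Hoxd12 and Hoxd13.

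Between the first and last gene of a cluster, the SRCAP list held more peaks than the GFP list in each of the 4 clusters. Over all 4, a length of 492 kb, there were 8 GFP peaks (exact Poisson interval 3.45 to 15.8) and 29 SRCAP peaks (19.4 to 41.6). The flanks, a length of 800 kb, showed no such gap, with 19 GFP peaks (11.4 to 29.7) and 18 SRCAP peaks (10.7 to 28.4). Per Mb this was 16.3 and 59.0 peaks inside the clusters, 23.8 and 22.5 in the flanks, and 10.8 and 10.6 over the genome.

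**Figure D3:**
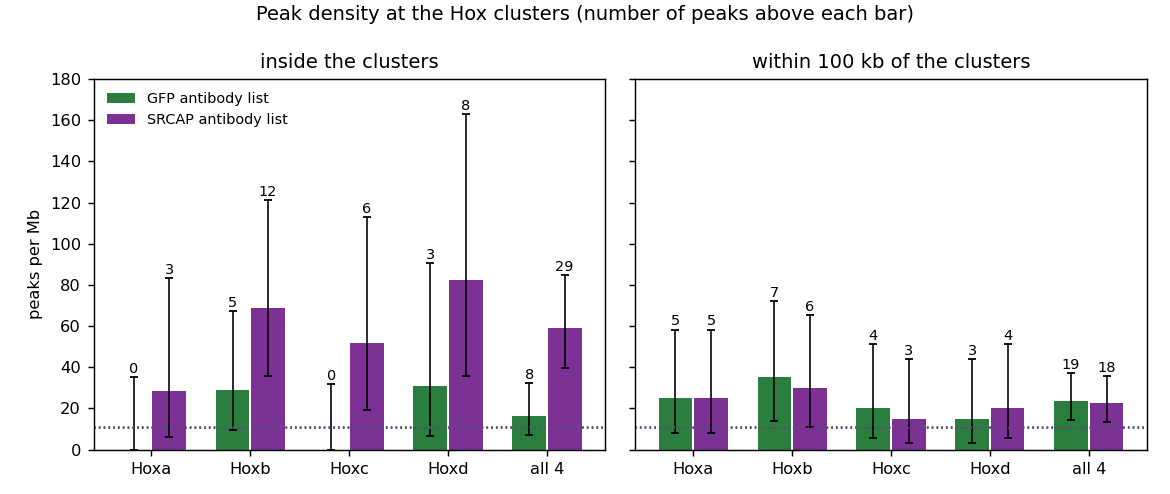
Bars give peaks per Mb in each cluster (left panel) and in the 100 kb on both sides of it (right panel) for the GFP list (green) and the SRCAP list (purple), error bars are exact 95% Poisson intervals, the number of peaks stands above each bar, and dotted lines mark the genome value of each list. SRCAP bars are the higher in every cluster of the left panel, with 29 against 8 peaks in all, while the bars of the right panel lie close together.

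By cluster, Hoxa held 0 GFP and 3 SRCAP peaks, Hoxb held 5 and 12, Hoxc held 0 and 6, and Hoxd held 3 and 8. In the flanks the same counts were 5 and 5 for Hoxa, 7 and 6 for Hoxb, 4 and 3 for Hoxc, and 3 and 4 for Hoxd. No single cluster carried the difference, since the 3 clusters other than Hoxb held 3 GFP and 17 SRCAP peaks. The Poisson intervals of single clusters were wide and overlapped between the lists in each cluster.

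Most SRCAP peaks inside the clusters had low scores. Of the 29, 20 lay below the list's median score of 47 (69.0%, 50.8% to 82.7%), beside 48.1% of the whole list, and their median score was 29.0. Of the 8 GFP peaks 4 lay below the median (50.0%, 21.5% to 78.5%), beside 48.7% of that list. With only peaks at or above the median kept, the clusters held 4 GFP and 9 SRCAP peaks. Peaks inside the clusters had a median width of 228 bp in the GFP list, beside 301 bp over that list, and of 207 bp in the SRCAP list, beside 258 bp.

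**Figure D4:**
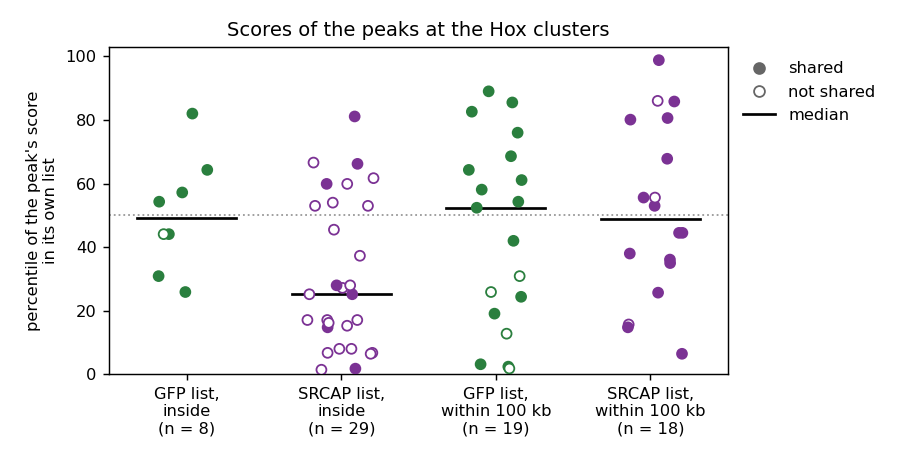
Each point is 1 peak at the Hox clusters, placed by the percentile of its score within its own list (vertical axis), for peaks inside the clusters and within 100 kb of them in the GFP and SRCAP lists. Filled points overlap a peak of the other list, open points do not, and lines mark medians, which are 49.2 and 25.2 inside and 52.4 and 48.8 in the flanks for GFP and SRCAP.

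Overlap between the lists was counted as well. Peaks that had 1 bp or more in common with the other list were called shared. Inside the clusters, 7 of 8 GFP peaks were shared (87.5%, 52.9% to 97.8%) and 7 of 29 SRCAP peaks (24.1%, 12.2% to 42.1%), beside 56.2% and 57.7% over the whole lists. The GFP interval held its whole-list share, and the SRCAP interval lay below its own. Both counts come from the same 7 overlapping pairs. The gap between the shares therefore follows from the unequal numbers of peaks and is not a separate difference. In the flanks 15 of 19 GFP peaks (78.9%, 56.7% to 91.5%) and 15 of 18 SRCAP peaks (83.3%, 60.8% to 94.2%) were shared. When each peak had to be overlapped by at least 50% both ways, the shares inside were 25.0% of GFP and 6.90% of SRCAP peaks. Those in the flanks were 63.2% and 66.7%, so the order of GFP peaks inside and in the flanks depends on this choice. The shares of the whole lists under this stricter rule are not given, so the values have no background beside them. Peaks of the whole lists with the same scores as those inside the clusters were shared at 55.7% for GFP and 46.0% for SRCAP, and for the scores of the flank peaks the shares were 52.3% and 59.0%.

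Hox clusters are among the most CpG-dense regions of their size, and density of CpG was compared as well. The clusters held 24.4 CG dinucleotides per kb in all, from 20.9 in Hoxb to 29.9 in Hoxa, beside a median of 7.41 in the 26513 tiles of 100 kb over the genome. Outside the Hox clusters, 41 tiles had at least the 20.9 per kb of Hoxb. They held 248 GFP and 229 SRCAP peaks, a ratio of SRCAP to GFP of 0.923, beside 2.40 inside Hoxb and 0.981 over the whole lists. Only 7 tiles had at least the 24.4 per kb of all 4 clusters, with a ratio of 0.939 beside 3.62 inside the 4 clusters. The density of Hoxa was reached by 1 tile and that of Hoxd by 2, so these 2 clusters had almost no tiles to be compared with. The 4 clusters held 1.63 GFP and 5.90 SRCAP peaks per 100 kb, and 25.7% and 2.30% of all tiles held at least that many. The 41 tiles held a mean of 6.05 GFP and 5.59 SRCAP peaks, and the 7 tiles 4.71 and 4.43. Beside these CpG-dense tiles the SRCAP value of the clusters was similar and the GFP value was lower.

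The map of peaks along the clusters shows where the SRCAP peaks stood. Of the 29, 15 had their midpoint within the annotated record of a Hox gene and 14 lay between records. For the 8 GFP peaks it was 2 and 6. The part of the clusters that these records cover is not given, so whether these counts are high or low cannot be told. Promoters were counted first, and 8 SRCAP peaks were at the promoter of any annotated gene. By finest feature the rest were 1 in a coding exon, 1 in a UTR, 2 in other exons, 8 in introns and 9 in intergenic DNA. Promoter peaks that also lay in an exon or intron, such as that of Hoxc11 in coding sequence, were not counted again. Shares of the whole lists by feature are not given.

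**Figure D5:**
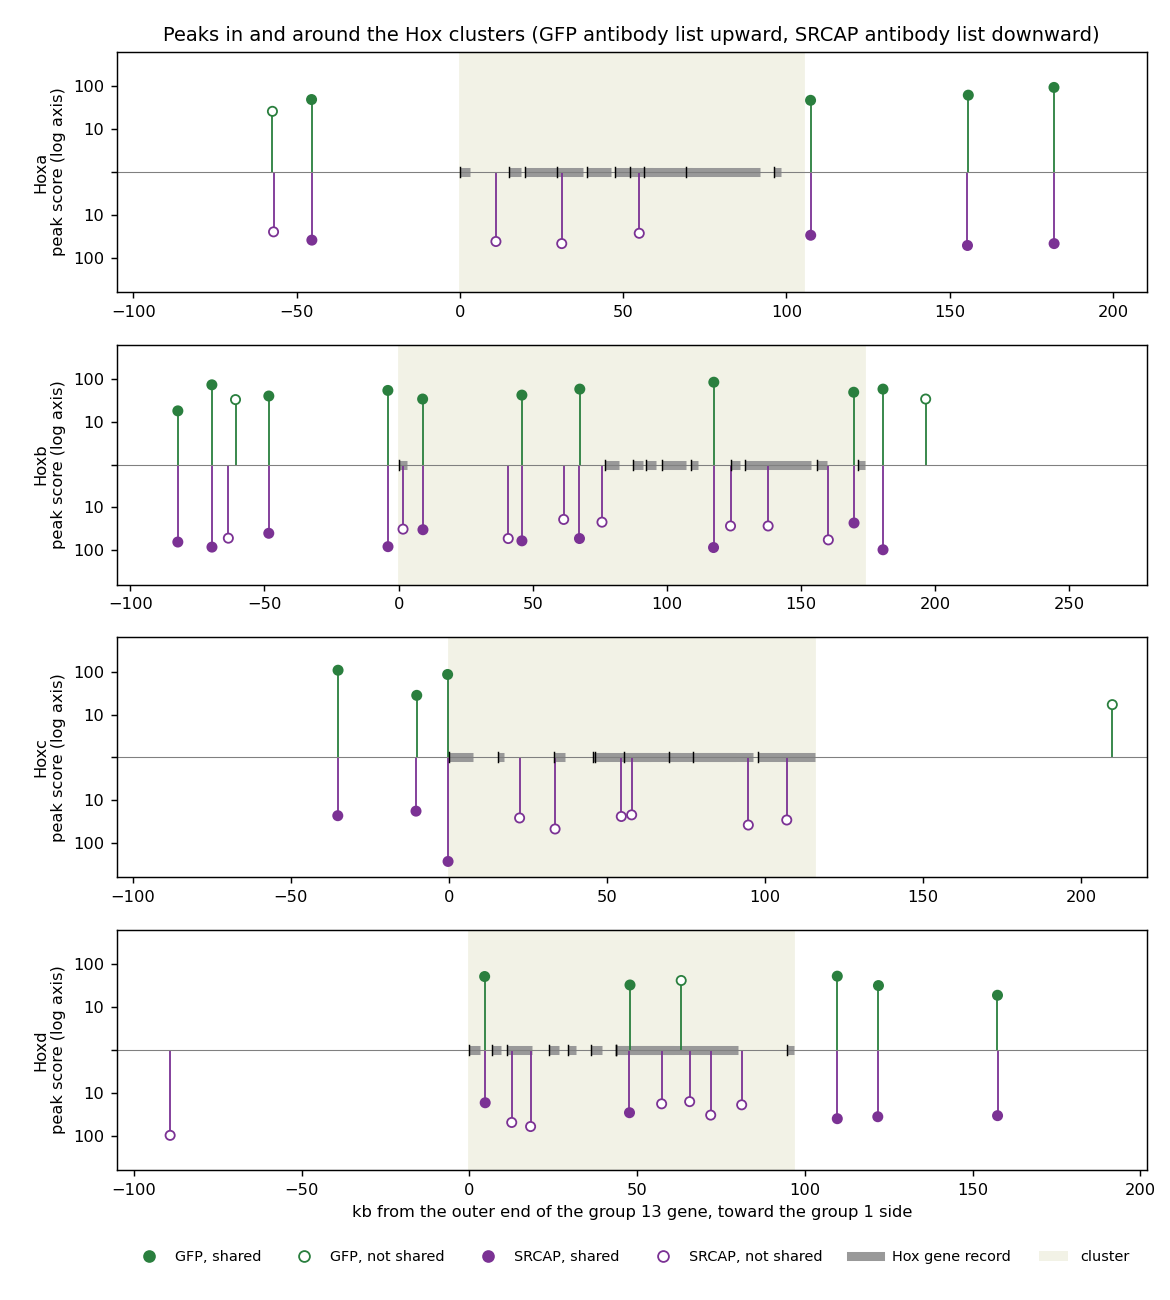
Each panel is 1 cluster with its 100 kb flanks, drawn with the group 13 gene at 0 kb on the left and the group 1 side on the right, grey bars for Hox gene records and ticks for their 5′ ends. Stems give peak scores on a log axis, upward for the GFP list and downward for the SRCAP list, filled where a peak overlaps one of the other list, and the shaded clusters hold 22 open SRCAP points and 1 open GFP point.

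In Hoxa, which is read on the minus strand, no GFP peak lay inside the cluster, and the GFP list left a stretch of 153 kb with no peak around all 11 genes. The 3 SRCAP peaks stood on the central and posterior side. At Hoxa5 a peak of score 27 on chr6:52205867-52206035 had its midpoint 1364 bp upstream of the TSS, in introns of Hoxa3 and of the antisense RNA Hoxaas3. At Hoxa9 a peak of score 47 on chr6:52229587-52229793 lay in an exon and ended 288 bp from Mir196b, a microRNA gene of a family known to repress Hox transcripts. Upstream of Hoxa11 a peak of score 42 on chr6:52249630-52250056 had its midpoint 4033 bp from the TSS and overlapped the end of the antisense RNA Hoxa11os. All 3 were unshared, and from Hoxa2 to Hoxa4 no peak of either list had its midpoint inside the cluster.

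In Hoxb, 5 sites were listed by both antibodies. One lay between Hoxb5 and Hoxb4, on chr11:96311747-96311989 with a score of 84 in the GFP list and on chr11:96311530-96312000 with a score of 86 in the SRCAP list, which are the highest scores inside any cluster. Next to Hoxb1, a hindbrain gene, GFP had a peak of score 49 on chr11:96363938-96364136 and SRCAP one of score 23 on chr11:96364079-96364234, with midpoints 1715 bp and 1595 bp upstream of the TSS. At the promoter of the noncoding RNA Gm53, upstream of Hoxb9, GFP had a peak of score 58 on chr11:96261760-96262019 and SRCAP one of score 53 on chr11:96261677-96261877. The remaining shared sites lay in the long interval between Hoxb13 and Hoxb9. They were chr11:96203186-96203382 (GFP, score 34) with chr11:96203317-96203495 (SRCAP, score 33), and chr11:96240194-96240406 (GFP, score 42) with chr11:96240193-96240428 (SRCAP, score 60).

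The 7 SRCAP peaks of Hoxb that GFP lacked had scores from 19 to 57. Besides the Hoxb4 promoter peak, 1 lay in the coding sequence of Hoxb13, a gene of the prostate and tail bud, on chr11:96195868-96196086 with a score of 32. Another stood at the promoter of Hoxb3os, an antisense RNA of the Hoxb3 region, on chr11:96354470-96354679 with a score of 57. Its midpoint was 2944 bp downstream of the Hoxb2 TSS. An intron of Hoxb3 held a peak of 528 bp, the widest of all inside a cluster, on chr11:96331862-96332389 with a score of 27.
The other 3 were upstream of Hoxb9. They lay on chr11:96235103-96235313 with a score of 53, on chr11:96255802-96255970 in an intron of Gm53 with a score of 19, and on chr11:96270091-96270246, 1288 bp upstream of the Hoxb9 TSS, with a score of 22. The interval between Hoxb13 and Hoxb9, 74.0 kb long, held 3 of the 5 GFP peaks and 6 of the 12 SRCAP peaks of the cluster. The longest stretch of the cluster with no SRCAP peak was 41.6 kb and held every TSS of Hoxb5, Hoxb6, Hoxb7, Hoxb8 and Hoxb9.

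In Hoxc, no GFP peak lay inside the cluster, and after the Hoxc13 promoter the GFP list had no peak for 210 kb. The 6 SRCAP peaks were all unshared. Besides the promoter peaks of Hoxc11 and Hoxc9, a peak of score 26 on chr15:102943353-102943609 lay between Hoxc12 and Hoxc11 and ended 453 bp from Hotair, a long noncoding RNA of the cluster. A peak of score 22 on chr15:102978782-102979084 had its midpoint 1901 bp downstream of a Hoxc9 TSS, in an intron. A peak of score 38 on chr15:103015684-103016003 lay in the UTR of Hoxc5, and the microRNA gene Mir615 ended 683 bp from it. The last, of score 29 on chr15:103027912-103028100, lay in an intron of Hoxc4.

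In Hoxd, 2 sites were shared. Upstream of Hoxd12, GFP had a peak of score 52 on chr2:74672620-74673125 and SRCAP one of score 17 on chr2:74672951-74673125. At the promoter of Hoxd3os1, an antisense RNA that starts within introns of Hoxd3 and Hoxd4 and runs past Hoxd8, GFP had a peak of score 33 on chr2:74715980-74716397 and SRCAP one of score 29 on chr2:74715895-74716185. The only GFP peak inside any cluster that SRCAP lacked lay on chr2:74731361-74731540 with a score of 42, in an intron of Hoxd3 and 1462 bp upstream of a TSS of that gene.

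The 6 SRCAP peaks of Hoxd that were not shared fell at Hoxd11 and around Hoxd3. Hoxd11, a gene of the forearm and lower spine, had a peak of score 49 on chr2:74680714-74681170 in an intron and a peak of score 61 on chr2:74686467-74686663 in its exon, the highest score of an unshared SRCAP peak inside the clusters. A peak of score 18 on chr2:74725469-74725766 ended 304 bp before Mir10b, a microRNA gene of the family that also lies beside Hoxb4. Introns of Hoxd3 held a peak of score 16 on chr2:74733892-74734047 and one of score 33 on chr2:74740123-74740359. The sixth, of score 19 on chr2:74749370-74749569, lay in an exon of Haglr, a noncoding RNA between Hoxd3 and Hoxd1. No peak of either list lay between Hoxd11 and Hoxd8, where Hoxd10 and Hoxd9 also stand.

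Noncoding and other genes within the clusters were counted too. Of 46 annotated genes there that are not Hox members, 2 carried a GFP peak at the promoter, Gm53 and Hoxd3os1, and 5 carried a SRCAP peak, with Hoxb3os, Mir10b and Mir196b added. Most of the 46 are noncoding, and no share over such genes of the genome is given. Whether these counts are low or high therefore cannot be told. The microRNA genes Mir10a and Mir615 had their nearest SRCAP peak at 740 bp and 683 bp, and Mir196a-1 and Mir196a-2 at 3287 bp and 2141 bp. Of these microRNA genes Mir196a-1 was the one nearest to a GFP peak, at 3145 bp.

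Outside the clusters, most peaks of either list were found by both antibodies. Some shared sites stood close to the ends of the clusters. A site on chr11:96190108-96190540 (GFP, score 54) and chr11:96190074-96190672 (SRCAP, score 82) lay 3992 bp and 3943 bp upstream of the Hoxb13 TSS. On the other side of Hoxb, chr11:96374569-96375345 (GFP, score 58) and chr11:96374714-96375223 (SRCAP, score 97) lay 6701 bp and 6713 bp beyond Hoxb1. The site nearest to Hoxd1 lay 12821 bp beyond it, on chr2:74777835-74778090 (GFP, score 53) and chr2:74777858-74778074 (SRCAP, score 40).

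On each side of a cluster the highest score was as follows. On the side of Hoxa beyond its anterior genes it was 94 for GFP on chr6:52078500-52079403 and 52 for SRCAP in an intron of the noncoding RNA Halr1 on chr6:52105235-52105647. On the Hoxa13 side both lists had their highest score upstream of Evx1, a homeobox gene linked to Hoxa, with 49 for GFP on chr6:52306140-52306459 and 39 for SRCAP on chr6:52306056-52306362. On the Hoxb13 side it was 73 for GFP on chr11:96124418-96124973 and 84 for SRCAP on chr11:96124508-96124948, a shared site. These sites lay from 45329 bp to 76638 bp from the clusters.
On the Hoxb1 side both lists had their highest score at the site beyond Hoxb1 given above. On the Hoxc13 side it was 108 for GFP on chr15:102885902-102886182, where SRCAP had 23, and 269 for SRCAP at the Hoxc13 promoter. On the Hoxc4 side the GFP list had 1 peak, of score 17, on chr15:103130869-103131138, and the SRCAP list had none. Beside Hoxd13 the SRCAP list had 1 peak, of score 98, on chr2:74578917-74579375, and the GFP list had none, and beside Hoxd1 both had their highest score at the site given above.

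Other genes in the flanks also had promoter peaks, and the background shares were 35.0% (GFP) and 35.6% (SRCAP) of all protein-coding genes. Calcoco2, an autophagy receptor gene beside Hoxb, had one in both lists with scores of 18 for GFP and 64 for SRCAP. Mtx2, a mitochondrial import gene beside Hoxd, had one in both with scores of 19 and 34. Ttll6, a tubulin-modifying enzyme gene beside Hoxb, had one in the GFP list only with a score of 33. Lnpk, a gene of the endoplasmic reticulum beside Hoxd, had one in the SRCAP list only, together with the antisense RNA 4930445N08Rik, with a score of 98. The promoters of Evx1, Evx2 and Skap1, the remaining protein-coding genes there, had none.

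Exact motif matches were sought on both strands of the 300 bp at each peak's midpoint. A site shared by the lists counts once in each, with 7 such pairs inside the clusters and 15 in the flanks. Counts over both lists therefore cover fewer sites than peaks. The PBX-HOX motif TGATNNAT was found in 0 of the 37 peaks inside the clusters and 0 of the 37 in the flanks, counting both lists, beside 8.01% of all GFP peaks and 7.39% of all SRCAP peaks. The MEIS motif TGACAG was found in 2 of 29 SRCAP peaks and 0 of 8 GFP peaks inside the clusters, beside 18.7% and 17.8% of the lists. The CDX motif TTTATG was found in 1 peak of each list inside the clusters, at a shared site between Hoxb13 and Hoxb9, beside 10.2% of SRCAP peaks and 11.6% of GFP peaks.
The NFY motif CCAAT was found in 5 of 29 SRCAP and 2 of 8 GFP peaks inside the clusters and in 5 of 18 and 6 of 19 in the flanks, beside 37.0% and 37.5%. The octamer ATGCAAAT was found at the shared site of highest score on the Hoxb13 side and in the SRCAP peak near Mir615, beside 3.10% of SRCAP peaks and 3.36% of GFP peaks. The ETS motif CCGGAAGT was found at the Mtx2 promoter in both lists, beside 2.06% and 1.80%. No match to the CTCF core, to the direct repeat spaced by 2 bp or to the NRF1 motif GCGCATGCGC was found in any of these peaks, whose shares of the whole lists were at most 4.52%.
In the promoter windows of the Hox genes themselves, TGATNNAT was found at 24 of 39 (61.5%) beside 61.8% of all protein-coding genes, TGACAG at 19 (48.7%) beside 81.2%, and CCAAT at 39 of 39 beside 94.1%.

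Genes that act with or upstream of Hox genes were counted in the same way, beside the background shares of 35.0% (GFP) and 35.6% (SRCAP) of all protein-coding genes. Of 9 TALE cofactor genes, whose homeodomain proteins bind DNA together with Hox proteins, 5 carried a GFP peak at the promoter (55.6%, 26.7% to 81.1%) and 6 carried a SRCAP peak (66.7%, 35.4% to 87.9%). They included Meis2, Pbx3, Pbx4 and Pknox1 in both and Meis3 in the SRCAP list alone. Of 11 upstream regulators (among them Cdx genes and retinoic acid and retinoid X receptor genes) 3 had one in the GFP list (Cdx4, Rara and Rarg, 27.3%, 9.75% to 56.6%) and 2 in the SRCAP list (Rxra and Rxrg, 18.2%, 5.14% to 47.7%). The intervals of the single lists overlap those of the Hox genes and hold the background shares. None had one in both lists (0%, 0% to 25.9%), beside 27.0% of all protein-coding genes. Of 6 ParaHox genes, the sister group of the Hox genes, Cdx4 and Pdx1 had one in the GFP list and Pdx1 in the SRCAP list.

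Of 85 other homeobox genes, 12 carried a GFP peak at the promoter (14.1%, 8.26% to 23.1%) and 22 carried a SRCAP peak (25.9%, 17.8% to 36.1%), beside 35.0% and 35.6% of all protein-coding genes. The SRCAP interval holds its background share and overlaps the interval of the Hox genes. Within 5 kb of the records of these 85 genes there were 48 GFP and 88 SRCAP peaks, a ratio of 1.83, and 52.1% and 30.7% of them were shared. Within 5 kb of the records of the 39 Hox genes the counts were 7 and 26, a ratio of 3.71, and 85.7% and 23.1% were shared. At the TALE cofactor genes the counts were 29 and 32, a ratio of 1.10.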

How the data were processed

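Peak lists of SYAT mESCs were used, 1 per antibody, grouped by the antibody in their titles. The authors deposited for each peak its position and a whole-number score of unstated meaning. The submitters' processing notes name STAR, Picard, MACS2 and the builds mm10 and dm6 for the series, and the study describes, for ChIP-seq, MACS2 calls on paired fragments against an input. Whether the CUT&RUN lists were called that way was not stated. Every peak end lay within the GRCm38 chromosomes.

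Midpoints were placed against TSSs of GENCODE vM21 with Python 3.11.15 and pandas 2.3.3, base composition and motifs were read from the GRCm38 genome with pysam 0.24.0, and overlaps were checked with bedtools 2.31.1. The counting steps were tested on simulated data. Wilson and exact Poisson intervals at 95% cover counting error only. Blacklisted regions were not removed here, and read depth is unknown.

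The members, gene lists and motifs were chosen with earlier results of these data known. Every Hox gene was counted, those with a promoter peak were described and the rest given by range. Every peak inside a cluster was described, and in the flanks genes with a promoter peak and the highest score on each side. A few items are not reported here. Alternatives were other windows, TSS sets, score limits, flanks and overlaps.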

Additional observations from a re-analysis of the deposited data

How the results depend on the processing

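Promoter counts kept to within 1.5 times of the main count with TSSs of protein-coding transcripts, with 1 TSS a gene and with any overlap of the window. A window of 2500 bp on each side gave 4 Hox genes in the GFP list, 14 in the SRCAP list and 4 in both. With peaks under the median score left out, 2 Hox genes were left in the SRCAP list (5.13%), beside 23.5% of all protein-coding genes. The same score limit gave 4 GFP and 9 SRCAP peaks inside the clusters and 10 and 9 in the flanks. Densities were 8.13 and 18.3 per Mb inside for GFP and SRCAP, and 12.5 and 11.2 per Mb in the flanks. Of these GFP peaks, 100% were shared both inside and in the flanks, and the whole-list share at this limit is not given. By construction this setting has fewer peaks. Flanks of 50 kb held 11 GFP and 10 SRCAP peaks and flanks of 200 kb held 44 and 39, as the length changed. With a reciprocal overlap of at least 50%, 25.0% of GFP and 6.90% of SRCAP peaks inside the clusters were shared, beside 63.2% and 66.7% in the flanks. Whole-list shares under that rule are not given. Base composition moved by less than the spread between Hox genes. The distance of 5 kb from a TSS, the CpG-dense tiles and the shares at the same scores were added with the data already seen. No paired analysis was possible because the antibodies were used in a single library each. Single libraries, an unknown depth and an unstated score limit every comparison of the lists.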
